A study of Mus musculus with 39 samples.

Results

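The genes described here are 9 genes of the surface epithelium of the colon or of its defence: Car1, Car4, Slc26a3, Aqp8, Aqp4, Saa1, Saa3, Tgm3 and Slc37a2. They are 9 of the 53465 genes in a table of RSEM transcript abundances, and they were chosen from these same values, as genes high in intestinal combined sorts and unsorted cells and low in single sorts of the same tissue. The difference between those groups is therefore given as a description, without a test. The study sorted myeloid-derived suppressor cells, which are immature myeloid cells that hold back T cells, with a granulocytic (G) and a monocytic (M) subset. It holds 39 mouse libraries in 13 groups of 3.

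The 12 intestinal libraries come from APCmin/+ mutant mice, which carry a mutant Apc allele that leads to intestinal tumours. They are 3 libraries of a combined (G+M) sort, 3 of all single cells of the intestine, 3 of the G sort and 3 of the M sort. The other groups are G, M and combined sorts from APCmin/+ mutant spleen, the same 3 sorts from the spleen of BALB/c mice labelled immune-deficiency, and G sort, M sort and all single cells of C57BL/6 bone marrow labelled New born-P7. Ages of the BALB/c and APCmin/+ mice, the stretch of intestine taken, the presence of tumour in it and the markers used for sorting are not stated in the sources. Whether the libraries within a group are from different animals is not labelled, and p values therefore cover only the spread between libraries, which may be technical.

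The colon lining absorbs water and salt and holds a dense bacterial community at a distance. Surface colonocytes take up sodium and chloride in exchange for protons and bicarbonate, which carbonic anhydrases supply, and water follows through aquaporins. The same epithelium answers bacteria and injury with acute phase proteins such as the serum amyloid A proteins. Car1 and Slc37a2 are not restricted to it: Car1 is also an enzyme of red blood cells and their precursors, and Slc37a2, a sugar phosphate exchanger of the endoplasmic reticulum, is also known from macrophages.

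RefSeq promoter windows (mouse GRCm38.p6) were matched for 7 of the 9 genes, and 4 of them are shown. Those of Saa1 and Saa3 are shown as 2 related genes at very different levels, and those of Tgm3 and Aqp8 because, with Car1 and Saa1, they had the highest ratios of means between the groups. Each is printed 5′ to 3′ on the gene's own strand from 250 bases before the RefSeq start site, and bases inside an exon that GENCODE gives for the gene were left off its end. The printed stretch therefore ends at the start site in Saa1 and Tgm3, and 43 bases before it in Saa2, 24 in Saa3 and 3 in Aqp8. Capitals mark a match, on either strand, to TTGCNNAA, a pattern like that of C/EBP factors, which are known to act at acute phase gene promoters. Saa2, the close neighbour of Saa1, is shown for comparison.
Saa1 (chr7:46742981-46743230, minus strand): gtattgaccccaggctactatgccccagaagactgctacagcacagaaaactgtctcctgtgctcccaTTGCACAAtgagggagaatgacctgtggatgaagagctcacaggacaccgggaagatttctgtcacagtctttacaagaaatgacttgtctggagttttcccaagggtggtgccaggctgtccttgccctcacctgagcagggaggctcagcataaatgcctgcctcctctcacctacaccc
Saa2 (chr7:46751583-46751789, plus strand): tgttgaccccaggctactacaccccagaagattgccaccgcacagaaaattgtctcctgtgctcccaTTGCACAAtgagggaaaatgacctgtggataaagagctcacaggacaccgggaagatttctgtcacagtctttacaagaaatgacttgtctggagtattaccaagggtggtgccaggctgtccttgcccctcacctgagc
Saa3 (chr7:46715701-46715926, minus strand): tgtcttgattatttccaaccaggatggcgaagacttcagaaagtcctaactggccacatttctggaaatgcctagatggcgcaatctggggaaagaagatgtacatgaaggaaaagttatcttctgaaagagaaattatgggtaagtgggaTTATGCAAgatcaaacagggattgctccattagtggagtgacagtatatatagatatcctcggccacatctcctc
Tgm3 (chr2:130012090-130012339, plus strand): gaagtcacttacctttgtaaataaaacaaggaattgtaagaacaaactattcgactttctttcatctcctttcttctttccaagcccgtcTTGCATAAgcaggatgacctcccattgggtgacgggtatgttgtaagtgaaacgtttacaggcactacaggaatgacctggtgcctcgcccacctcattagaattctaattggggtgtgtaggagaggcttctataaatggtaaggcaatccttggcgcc
Aqp8 (chr7:123462044-123462290, plus strand): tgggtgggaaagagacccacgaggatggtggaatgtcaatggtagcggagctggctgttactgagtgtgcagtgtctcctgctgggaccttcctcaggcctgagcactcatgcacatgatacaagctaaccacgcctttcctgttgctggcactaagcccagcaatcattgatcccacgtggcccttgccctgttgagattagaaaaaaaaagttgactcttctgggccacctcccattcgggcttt

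Counted from the RefSeq start site, the match lay 182 to 175 bases before it in Saa1, 183 to 176 in Saa2, 99 to 92 in Saa3 and 160 to 153 in Tgm3. Of the 9 genes, 3 of the 7 with a window held it, against 9.56% of 32851 windows of 250 bases. A pattern like that of the intestinal CDX factors, TTTATNG on either strand, was in 1 of the 7, Tgm3, at 29 to 23 bases before the start and so apart from the capitals, against 9.81% of all windows. Saa1 and Saa2 were identical in 238 of 251 aligned columns over the whole 250 bases before their RefSeq start sites (94.8%), whereas Saa1 and Saa3 shared 52.2%. These are matches of letters and show neither binding nor its absence.

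Values are TPM (transcript shares scaled to a common total), corrected for transcript length. Levels can thus be set beside each other between genes, but TPM keeps no read depth, so counting intervals cannot be had. In bulk RNA, fewer cells of a type and less RNA per cell cannot be told apart. All 12 intestinal libraries held epithelial RNA: the 17 pan-intestinal epithelial genes of a list, such as Epcam and Krt8, summed to between 11025 and 15072 TPM in the combined sort, 10912 and 15271 in all cells, 12647 and 14826 in the G sort and 10667 and 12139 in the M sort. The highest sum in any library of another tissue was 110.2.

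The choice of the genes fixes that all 9 were higher without overlap in the combined sort and all cells. Over the whole table, 1105 of 18466 genes (5.98%) were higher in every combined and all-cell library than in every G and M library, and 176 (0.953%) were lower. Here and below, genes were tested with limma on log2(TPM + 1) and called where the adjusted p was under 0.05 and the change at least 2-fold. In this contrast 2.78% of genes were called, 2.23% higher and 0.552% lower, and families of related genes are given below as counts to read beside those shares. The fit takes all libraries as independent. Equally numbered libraries deviated alike, with correlations of 0.590 to 0.643 for combined sort with all cells and 0.432 to 0.599 for G with M sorts. Its p values in this contrast may thus be too small, and no fit with library number was run for it. Deposited TPM put the median of all genes at 0.14 on the log2 scale, and after rescaling by median ratios it was 0.01, while the share of higher calls moved from 80.1% to 66.7%. The sum of macrophage genes ran between 124 and 179.5 TPM in the combined sort, 406 and 849 in all cells, 103 and 326 in the G sort and 474 and 726 in the M sort. That of neutrophil genes, of the granulocytic lineage, ran between 49.4 and 186 TPM in the combined sort, 75.8 and 154 in all cells, 31.6 and 507 in the G sort and 18.5 and 37.6 in the M sort.

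One set of libraries stood apart. The X-inactivation transcript Xist was at 0.87 and 0.08 TPM in combined libraries 1 and 2 and at 225 TPM in library 3, and at 0.44 and 0.22 in all-cell libraries 1 and 2 and 255 in library 3. It was between 146 and 253 TPM in all 6 G and M libraries. Ddx3y, on the Y chromosome, was at 23.3 and 21.7 TPM in combined libraries 1 and 2 and 24.3 and 29.2 TPM in all-cell libraries 1 and 2, and at most 0.07 TPM in the other intestinal libraries. Numbers 1 and 2 of the combined sort and of all cells therefore held Y-linked RNA and the single sorts did not, and the difference between these groups is also given for number 3 alone.

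The carbonic anhydrases interconvert carbon dioxide and bicarbonate. Car1, the cytosolic enzyme (chr3:14766216-14808368, minus strand, GRCm38), was at 1359, 695 and 1284 TPM in combined libraries 1, 2 and 3 and at 1608, 755 and 1181 TPM in all-cell libraries 1, 2 and 3, against 0.28, 2.26 and 0.05 TPM in the G sort and 0.28, 0.33 and 0.34 TPM in the M sort. The groups did not overlap, and the lowest of the 6 high libraries was 307-fold above the highest of the 6 single-sort libraries. Car1 averaged 1147 ± 357 TPM over the 6 combined and all-cell libraries and 0.590 ± 0.825 TPM over the 6 single-sort libraries (SD), a ratio of means of 1944 that rests on values below 1 TPM in 5 of the 6 single-sort libraries. Without G library 2 the ratio was 4480. Some reads of Car1 are shared, since 6.02% of the 75-base stretches of its transcripts also occur in Gm5843.

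Car4, the carbonic anhydrase anchored at the cell surface (chr11:84957786-84966044, plus strand), showed a far narrower gap. It was at 491, 326 and 386 TPM in the combined sort and 451, 249 and 329.8 TPM in all cells, against 104, 98.0 and 133 TPM in the G sort and 71.7, 77.7 and 114 TPM in the M sort. All 12 libraries thus held at least 71.7 TPM of Car4, and the ratio of means was 3.73. Among the other 14 carbonic anhydrases, Car2 was the 1 of 8 tested that passed the limma test in this contrast, and the only 1 of 14 without overlap. Car2, the major cytosolic form, was at 189, 116 and 265 TPM in the combined sort and 213, 119 and 249 TPM in all cells, against 6.94, 8.69 and 6.77 TPM in the G sort and 9.56, 4.92 and 9.78 TPM in the M sort.

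Slc26a3 encodes the apical chloride-bicarbonate exchanger of the colon (chr12:31390871-31473917, plus strand). It was at 232, 139 and 216 TPM in the combined sort and 216, 123 and 189.6 TPM in all cells, against 79.3, 83.0 and 72.0 TPM in the G sort and 65.4, 71.4 and 61.8 TPM in the M sort. Its ratio of means, 2.58, was the smallest of the 9, and the lowest high library lay 1.48-fold above the highest single-sort library. Of 10 other SLC26 exchangers, 7 were tested and 0 passed, with Slc26a2, the sulphate transporter, at 128 ± 41.1 TPM over the combined and all-cell libraries and 64.9 ± 14.9 TPM over the single sorts. Slc26a6, an anion exchanger and the most abundant of these, was at 175 ± 52.5 TPM over the combined and all-cell libraries and 312 ± 66.8 TPM over the single sorts, with overlap and under the 2-fold minimum (log2 difference -0.86).

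Aquaporins are membrane channels for water. Aqp8, of surface colonocytes (chr7:123462291-123468004, plus strand), was at 167, 124 and 133 TPM in the combined sort and 152, 105 and 109 TPM in all cells, against 4.17, 1.83 and 1.15 TPM in the G sort and 3.71, 0.47 and 1.19 TPM in the M sort. Aqp4, a channel of basolateral membranes, was at 41.0, 26.6 and 62.4 TPM in the combined sort and 45.2, 26.5 and 59.0 TPM in all cells, against 6.75, 7.86 and 8.44 TPM in the G sort and 3.70, 3.56 and 4.82 TPM in the M sort. Neither overlapped between the groups, and the ratios of means were 63.1 for Aqp8 and 7.42 for Aqp4. For Aqp8 the ratio was 78.8 without G library 1, the highest of the single sorts. Of 9 other aquaporins, 6 were tested and 0 passed, and Aqp1, a channel also of endothelium, was at 99.3 ± 17.4 TPM over the combined and all-cell libraries and 106 ± 12.1 TPM over the single sorts.

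The serum amyloid A proteins bind lipids and retinol and are made in inflammation. Saa1 (chr7:46740497-46742980, minus strand) was at 761, 886 and 679 TPM in the combined sort and 701, 593 and 542 TPM in all cells, against 4.22, 5.62 and 4.67 TPM in the G sort and 5.28, 5.77 and 3.00 TPM in the M sort. The lowest high library was 93.9-fold above the highest single-sort library, and the ratio of means was 146. Saa2 (chr7:46751790-46754313, plus strand), whose promoter above is nearly that of Saa1, was at 1.22, 0.95 and 0.34 TPM in the combined sort and 1.04, 0.65 and 0.61 TPM in all cells, and was listed at 0 in 5 of the 6 single-sort libraries. Reads that fit both genes are assigned by the authors' quantifier: 18.5% of the 75-base stretches of Saa1 transcripts also occur in Saa2, or 4.67% when the protein-coding transcripts alone are taken, so the split between them is uncertain.

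Saa3 (chr7:46711998-46715700, minus strand), the form made by macrophages, fat and epithelium, was the least abundant of the 9 in the combined sort and all cells. It was at 9.24, 4.33 and 4.18 TPM in the combined sort and 12.5, 4.38 and 3.94 TPM in all cells, against 0.32, 0.13 and 0.25 TPM in the G sort and 0.28, 0.70 and 0.64 TPM in the M sort. Its groups did not overlap, at a ratio of means of 16.6, and library 1 stood above the others in both high groups. Of 17 other genes of the epithelial acute phase and microbial response, 15 were tested and 1 passed, the fucosyltransferase gene Fut2, at 36.6 ± 5.65 TPM over the combined and all-cell libraries and 8.08 ± 3.10 TPM over the single sorts. Reg3b, an antibacterial lectin, was at 3576 ± 1787 TPM and 3805 ± 1064 TPM in the same order and did not pass. Il22, which encodes a cytokine known to induce Saa1 and the Reg3 genes, was at 0.752 ± 0.571 and 0.225 ± 0.139 TPM, too low to be tested.

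Tgm3, a transglutaminase that crosslinks proteins (chr2:130012349-130050399, plus strand), came nearest to being present in one set of libraries alone. It was at 121, 76.6 and 103 TPM in the combined sort and 116, 63.2 and 89.5 TPM in all cells. In the single sorts its highest value was 0.04 TPM, and it was listed at 0 in G library 1 and in M library 2. The lowest high library was 1581-fold above the highest single-sort library. The other 6 transglutaminases had 3 genes tested and 0 that passed, and Tgm2, the tissue form, was at 45.3 ± 4.02 TPM over the combined and all-cell libraries and 59.5 ± 7.61 TPM over the single sorts.

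Slc37a2 (chr9:37227585-37255738, minus strand) was at 36.0, 27.9 and 37.0 TPM in the combined sort and 35.4, 26.1 and 30.5 TPM in all cells, against 1.09, 1.35 and 1.68 TPM in the G sort and 1.54, 1.54 and 2.76 TPM in the M sort. The groups did not overlap and the ratio of means was 19.4. The other 3 members of the SLC37 family, including Slc37a4, the liver and kidney transporter of glucose 6-phosphate, were tested and 0 passed.

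**Figure D1:**
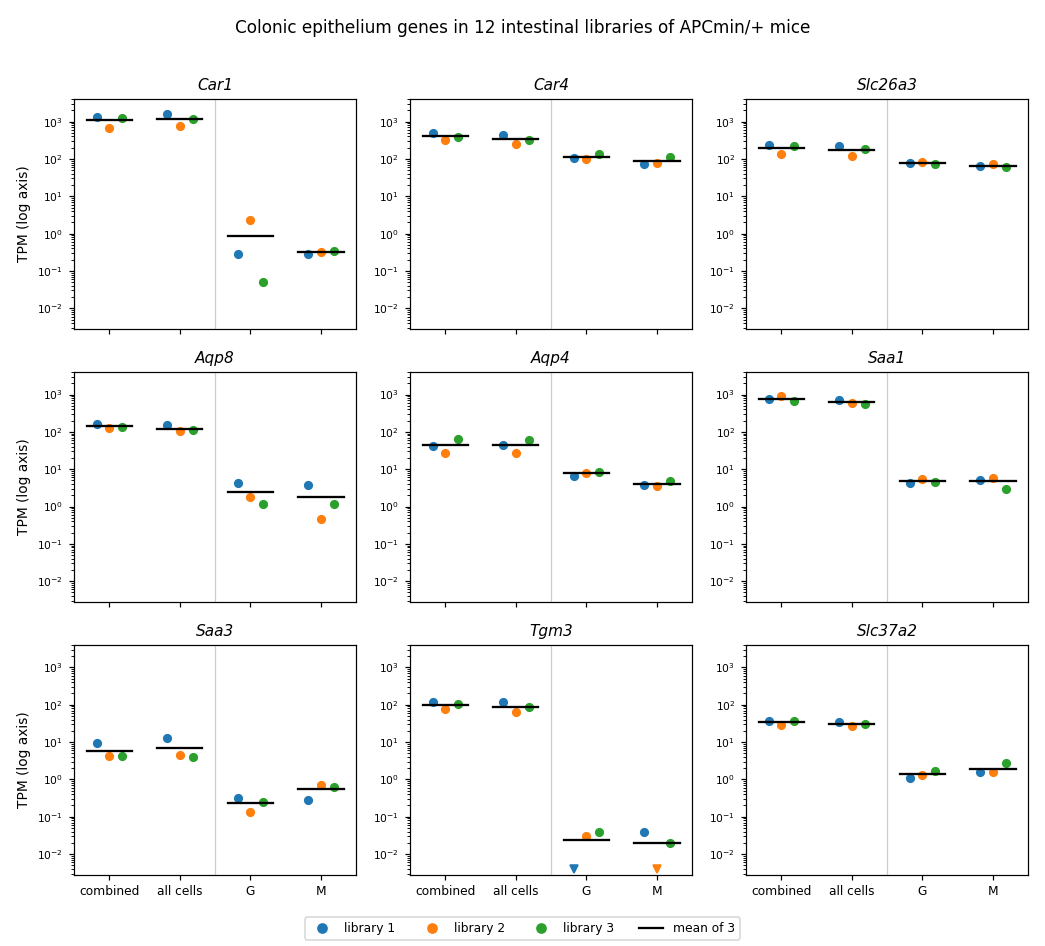
TPM of each of the 9 genes (vertical axis, log scale) in the 12 intestinal libraries, as points coloured by library number, with a line at the mean of 3; downward triangles mark libraries listed at 0. All 6 combined and all-cell libraries lie above all 6 single-sort libraries for every gene, by 1.48-fold for Slc26a3 and by 1581-fold for Tgm3 between the nearest libraries.

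With number 3 of the combined sort and of all cells alone set against the single sorts, all 9 were again higher without overlap, with 3193 genes higher without overlap over the table. The ratio of means was then 2089 for Car1, 3.59 for Car4, 2.81 for Slc26a3, 58.0 for Aqp8, 10.4 for Aqp4, 128 for Saa1, 10.5 for Saa3, 4446 for Tgm3 and 20.3 for Slc37a2.

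In the single sorts the 9 genes were not low alike. Car4 and Slc26a3 stayed at 61.8 TPM or more in each G and M library, Saa1, Aqp4, Aqp8 and Slc37a2 lay between 0.47 and 8.44 TPM, and Car1, Tgm3 and Saa3 were below 1 TPM except for Car1 in G library 2. The summed TPM of the 9 was 3217, 2305 and 2905 in the combined sort and 3337, 1945 and 2534 in all cells, against 199.9, 200.02 and 222 in the G sort and 152, 161 and 189 in the M sort.

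Other genes of the region of the gut were set beside the 9. A list of 20 further genes of colonic epithelium was put together with earlier results of these data known, so its counts are a description and no independent support. Of the 20, 15 were higher and 1 lower without overlap. Limma called 10 of the 19 tested higher and 0 lower, with a median log2 difference of 1.05. Among intestinal libraries, Atp12a and Fxyd4 reached the 1 TPM needed for testing only in the combined sort and all cells, which favours a higher call. In number 3 alone the list summed to 10683 TPM in the combined sort and 10887 TPM in all cells, above the highest single-sort library at 8598 TPM. Atp12a, the colonic proton-potassium pump, was at 59.3, 27.9 and 49.5 TPM in the combined sort and 50.0, 19.5 and 36.7 TPM in all cells, against at most 0.04 TPM in any single-sort library. Fxyd4, a regulator of the sodium pump, was at 14.5 ± 2.40 TPM over the combined and all-cell libraries and 0.025 ± 0.0446 TPM over the single sorts. Hsd11b2, which shields the mineralocorticoid receptor from glucocorticoids, was at 73.0 ± 13.7 and 13.9 ± 3.65 TPM in the same order. Muc2, the gel-forming mucin, was at 2422 ± 175 and 1456 ± 303 TPM, without overlap but not called by limma (log2 difference 0.75, adjusted p = 0.0640). Zg16, a goblet cell lectin, was the gene that was lower, at 2595 ± 314 and 3334 ± 349.7 TPM. Of 7 goblet cell genes, Muc2 and Zg16 among them, 0 were called, with 1 higher and 2 lower without overlap.

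Homeobox genes of the posterior groups mark position along the gut. Of 13 on the list, 9 were higher without overlap and 0 lower, and 7 of the 13 were listed at 0 in all 6 single-sort libraries. Of the 7 tested, 6 were called higher (median log2 difference 2.84). Testing required 1 TPM in 3 or more libraries, which a gene near 0 in the single sorts could reach only through other libraries. A higher call of such a gene was thus in large part fixed beforehand and is given as a description. The 9 include genes that were not tested, whereas the share of 5.98% over the table covers tested genes alone. Hoxb13 was at 38.0, 36.3 and 43.0 TPM in the combined sort and 37.2, 28.1 and 36.1 TPM in all cells, against at most 0.02 TPM in any single-sort library. The list summed to between 89.2 and 104 TPM in the combined sort, 85.7 and 89.6 in all cells, 7.86 and 15.2 in the G sort and 5.71 and 9.64 in the M sort. In number 3 alone it was 92.7 TPM in the combined sort and 85.7 TPM in all cells.

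Genes of small-bowel enterocytes went the other way. Of 20, 0 were called higher and 10 lower (median log2 difference -1.07), and 7 were lower without overlap. The list summed to between 6860 and 11610 TPM in the combined sort, 7590 and 12568 in all cells, 15429 and 24765 in the G sort and 16538 and 28541 in the M sort. In number 3 alone it was 9539 TPM in the combined sort and 9890.2 TPM in all cells, below every single sort. Fabp2, the intestinal fatty acid binding protein, was at 1388 ± 388 TPM over the combined and all-cell libraries and 3253 ± 574 TPM over the single sorts. The 17 pan-intestinal epithelial genes had 0 called in either direction. Endothelial genes were called higher in 4 of 6, erythroid in 5 of 10 and stromal in 3 of 7, with 0 of these without overlap and with the highest sums in all cells, and T cell genes were called lower in 2 of 5. Of 6 neutrophil genes 1 was called higher, the surface antigen gene Ly6g, at 27.7 ± 9.36 TPM over the combined and all-cell libraries and 1.74 ± 1.05 TPM over the single sorts without overlap. The part of the colonic, small-bowel, Ly6g or sex-linked difference between libraries in the levels of the 9 genes was not tested.

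**Figure D2:**
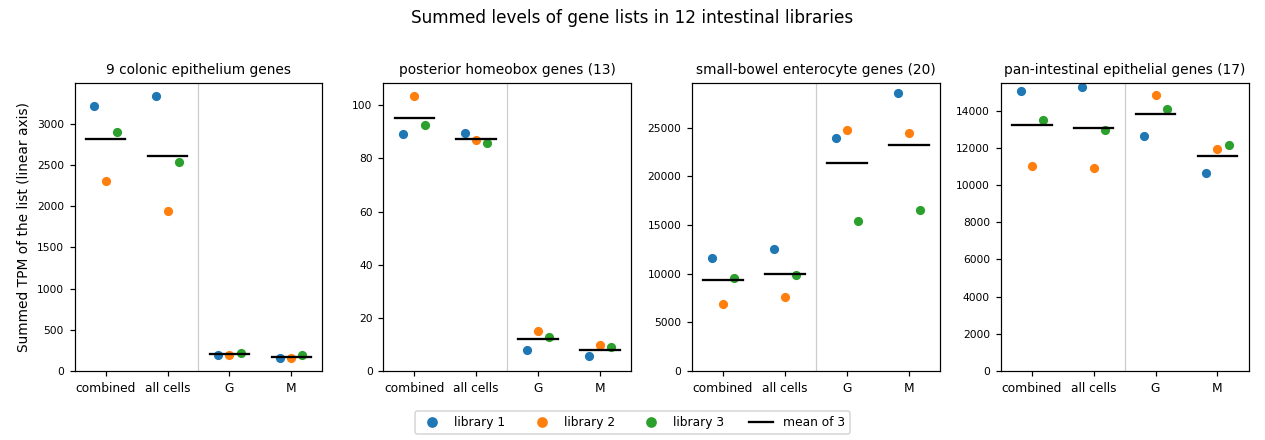
Summed TPM (linear axes from 0) of the 9 genes, of 13 posterior homeobox genes, of 20 small-bowel enterocyte genes and of 17 pan-intestinal epithelial genes in each intestinal library, with a line at the mean of 3. The sums of the 9 genes and of the homeobox genes are higher and the small-bowel sum lower in all combined and all-cell libraries than in all G and M libraries, while the pan-intestinal sums overlap.

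The profile of each gene over the 12 libraries was set beside those of 10184 genes, and the 3 with the highest Pearson r of log2(TPM + 1) were named. The 27 places were taken by 19 genes. These r are descriptions, since the points share tissue and the same gap between groups. Hoxb13 was among the 3 for Car1 (0.995), Aqp8 (0.986), Saa1 (0.997) and Tgm3 (0.999). Cyp2d34, a cytochrome P450, led for Tgm3 (0.999), and Fxyd4 for Slc37a2 (0.996). For Car4 the leading gene was Prdx6, a peroxiredoxin (0.995), for Slc26a3 Hsd3b3 (0.988), and for Aqp4 Acsm3 (0.994), genes that were not near 0 in the single sorts either. Saa3 had the lowest leading value, 0.962 with Cyp2d10.

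Within the combined sort and all cells, the 3 libraries were ordered alike for most of the 9 genes. Library 2 was the lowest in both groups for 7 of the 9, and library 1 the highest in both for 6. Saa1 was an exception: combined library 2 was its highest combined library. The lowest number was the same in both groups for 9 of 9 genes and the highest for 7. Such an order was not particular to the 9. The sum of the 17 pan-intestinal epithelial genes was 15072, 11025 and 13526 TPM in combined libraries 1, 2 and 3. In all-cell libraries 1, 2 and 3 it was 15271, 10912 and 12989 TPM.

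The combined sort was then set against all cells of the same tissue. The genes were chosen as high in both of these groups, which works against a large difference between them. A lack of calls among the 9 is therefore no independent result. By the limma test 0 of 9 were called and 0 had an unadjusted p under 0.05, beside 599 of 18466 genes called (3.24%), of which 2 were higher (0.0108%) and 597 lower (3.23%) in the combined sort. Car1 was at 1113 ± 364 TPM in the combined sort and 1181 ± 427 TPM in all cells, a log2 fold change of -0.08 ± 0.55 (SE, adjusted p = 1). Saa1 had the largest estimate, 0.34 ± 0.19 (adjusted p = 0.520). The others had 0.24 ± 0.20 for Car4, 0.16 ± 0.17 for Slc26a3, 0.22 ± 0.26 for Aqp8, -0.02 ± 0.20 for Aqp4, -0.11 ± 0.74 for Saa3, 0.18 ± 0.17 for Tgm3 and 0.13 ± 0.25 for Slc37a2. With library number as a block the log2 fold change was -0.080 ± 0.087 for Car1 and -0.11 ± 0.13 for Saa3 (SE), and a missed threshold does not show that levels were alike.

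Taken by library number, 6 of the 9 genes were higher in the combined sort in 3 of 3 pairs. The share of all genes that were so was not counted, so this is not shown to be particular to the 9. The ratio of combined sort to all cells was 1.09, 1.31 and 1.17 for Car4, 1.08, 1.13 and 1.14 for Slc26a3, 1.10, 1.18 and 1.22 for Aqp8, and 1.08, 1.50 and 1.25 for Saa1 in numbers 1, 2 and 3. For Tgm3 it was 1.04, 1.21 and 1.15, and for Slc37a2 1.02, 1.07 and 1.21. Car1, Aqp4 and Saa3 were lower in the combined sort in number 1, at 0.845, 0.907 and 0.740. With library number as a block, limma called 0 of the 9 and 0 genes in all, with 5 of the 9 and 4738 genes at an unadjusted p under 0.05. The lowest adjusted p among the 9 was then 0.0995, for Slc26a3.

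Over the same contrast the genes of several other cell types were lower in the combined sort. Calls were made for 5 of 5 T cell, 5 of 7 stromal, 4 of 6 endothelial and 5 of 10 erythroid genes, all lower, against 0 of 19 tested genes of the colonic list, 0 of 20 small-bowel genes and 0 of 17 pan-intestinal genes. The erythroid sum was between 14.4 and 45.6 TPM in the combined sort and 541 and 1996 TPM in all cells. Its part in the level of Car1, which erythroid cells also make, was not tested. A fit of these 6 libraries alone called 5 genes and 0 of the 9, with 2465 genes at an unadjusted p under 0.05.

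**Figure D3:**
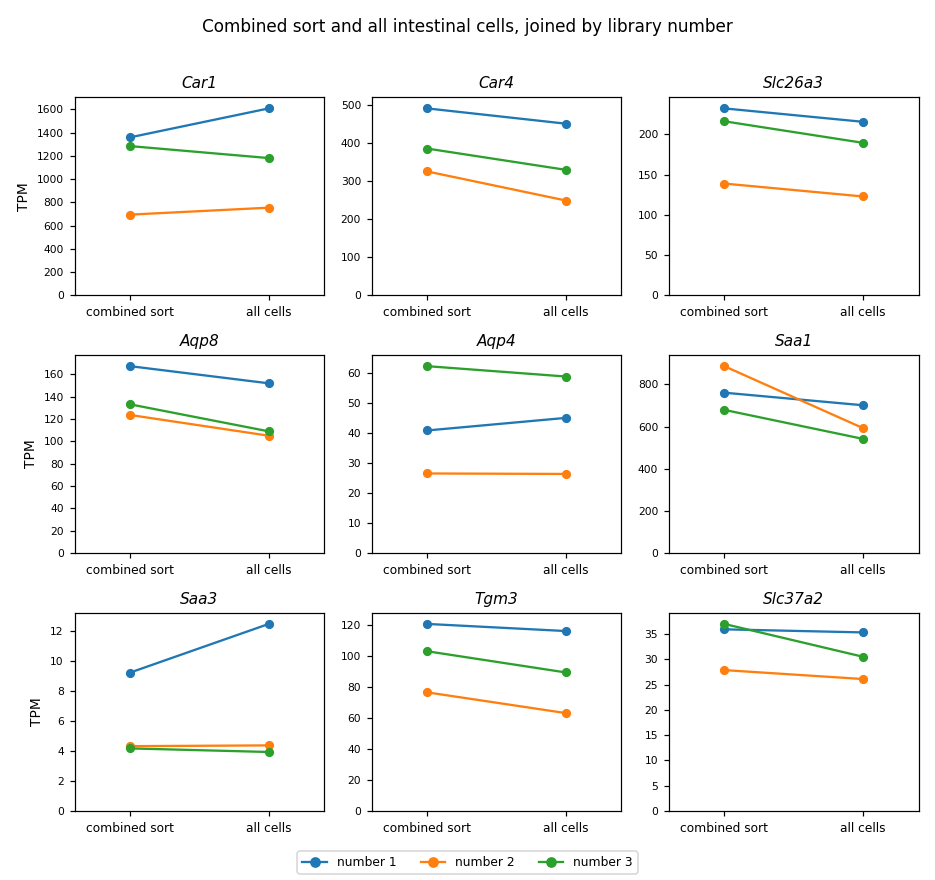
TPM (linear axes from 0) of each gene in the combined sort and in all intestinal cells, with lines joining libraries of the same number. Lines for Car4, Slc26a3, Aqp8, Saa1, Tgm3 and Slc37a2 slope downwards to all cells in all 3 numbers, and library 2 is lowest at both ends in 7 of the 9 panels.

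In the G sort against the M sort of intestine, 0 of the 9 genes were called, beside 523 of 18466 genes (2.83%), 13 higher (0.0704%) and 510 lower (2.76%). The genes were chosen as low in both sorts. Tgm3 and Saa3 were below 1 TPM in every library of these sorts, so they could not reach the 2-fold minimum on log2(TPM + 1). The 9 had 1 gene at an unadjusted p under 0.05. Aqp4 was at 7.68 ± 0.859 TPM in the G sort and 4.03 ± 0.691 TPM in the M sort without overlap, a log2 fold change of 0.79 ± 0.20 with adjusted p = 0.0107, under the 2-fold minimum. With library number as a block its adjusted p was 0.0582, and the block left 261 genes called. Slc26a3 was also without overlap, at 78.1 ± 5.56 TPM in the G sort and 66.2 ± 4.86 TPM in the M sort (0.24 ± 0.17, adjusted p = 0.420). Here and below, the share of all genes without overlap between 3 libraries and 3 was not counted. A lack of overlap in such a comparison therefore only describes the levels. Car4 was at 112 ± 18.9 and 87.8 ± 22.9 TPM (0.36 ± 0.20), Saa1 at 4.84 ± 0.715 and 4.68 ± 1.48 TPM (0.07 ± 0.19) and Slc37a2 at 1.37 ± 0.296 and 1.95 ± 0.704 TPM (-0.29 ± 0.25), in the same order of groups, with overlapping libraries. The median of all genes was 0.14 and moved to -0.01 after rescaling. A fit of these 6 libraries alone called 66 genes and 0 of the 9.

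Single sorts of intestine were next set against the same sorts of APCmin/+ spleen, to show whether the low levels in them were above those of a tissue without intestinal epithelium. The genes were chosen for low levels in these same intestinal libraries, so genes lower there than in spleen are given as levels without a test. Of the 9, 5 were called higher between the G sorts, beside 7542 of 18466 genes (40.8%, of which 18.7% higher and 22.2% lower). Car4 was at 112 ± 18.9 TPM in the intestinal G sort and 0.307 ± 0.266 TPM in the splenic G sort (log2 fold change 6.44 ± 0.20, adjusted p = 2.49e-22). Slc26a3 was at 78.1 ± 5.56 TPM in the intestinal G sort and 0.317 ± 0.119 TPM in the splenic G sort (5.91 ± 0.17). Saa1, at 4.84 ± 0.715 against 0.173 ± 0.205 TPM, and Aqp8, at 2.38 ± 1.58 against 0.0667 ± 0.115 TPM, were also higher, as was Aqp4, which was listed at 0 in all 3 splenic G libraries.

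The other 4 genes had lower means in the intestinal G sort. Car1 was at 0.863 ± 1.21 TPM in the intestinal G sort and 96.9 ± 35.5 TPM in the splenic G sort. Slc37a2 was at 1.37 ± 0.296 TPM in the intestinal G sort and 25.8 ± 4.94 TPM in the splenic G sort, and Saa3 at 0.233 ± 0.0961 and 2.32 ± 0.779 TPM, all without overlap. Tgm3 was below 1 TPM on both sides, at 0.0233 ± 0.0208 and 0.733 ± 0.131 TPM.

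Between the M sorts, 5 of the 9, the same as between the G sorts, were called higher in intestine, beside 7367 genes (39.9%, of which 14.2% higher and 25.7% lower). Car4 was at 87.8 ± 22.9 TPM in the intestinal M sort and 0.277 ± 0.155 TPM in the splenic M sort (6.10 ± 0.20), and Slc26a3 at 66.2 ± 4.86 and 0.270 ± 0.0265 TPM (5.72 ± 0.17). Car1 was at 0.317 ± 0.0321 TPM in the intestinal M sort and 276 ± 229 TPM in the splenic M sort. Slc37a2 was at 1.95 ± 0.704 TPM in the intestinal M sort and 26.5 ± 10.4 TPM in the splenic M sort, and Saa3 at 0.540 ± 0.227 and 5.05 ± 3.96 TPM, without overlap. Aqp8 lost its call without intestinal M library 1 (0.80). Rescaling moved the median of all genes from -0.43 to 0.00 and the share of higher calls from 35.7% to 60.8%, and between the G sorts that share moved from 45.7% to 53.3%.

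Erythroid, macrophage and neutrophil genes were lower in the intestinal sorts as well. Between the G sorts and again between the M sorts, 10 of 10, 9 of 9 and 6 of 6 were called lower. Of 5 plasma and B cell genes, 5 were called lower between the G sorts, but 3 lower and 1 higher between the M sorts. Their sum was 5139 ± 496 TPM in the intestinal M sort and 2576 ± 1323 TPM in the splenic M sort. The macrophage sum was 215 ± 111 TPM in the intestinal G sort and 4745 ± 2287 TPM in the splenic G sort, and 566 ± 139 TPM and 10355 ± 3609 TPM in the M sorts of the same tissues. The neutrophil sum was 195 ± 270.4 TPM in the intestinal G sort and 56598 ± 40696 TPM in the splenic G sort, and 28.4 ± 9.55 TPM and 58754 ± 31386 TPM in the M sorts. The sum of the 10 erythroid genes was 40.8 ± 36.0 TPM in the intestinal G sort and 11680 ± 5232 TPM in the splenic G sort of APCmin/+ mice, and 24.7 ± 11.2 TPM and 17719 ± 10624 TPM in the M sorts of the same tissues. The part of these cell types in the levels of Car1, Slc37a2 and Saa3 was not tested. Outside the intestine the group with the highest mean of Car1 was all marrow cells, at 480, 445 and 525 TPM, where the erythroid sum was 82018 ± 24045 TPM. The combined and all-cell intestinal libraries held 695 TPM of Car1 or more, above all marrow and spleen libraries, of which the highest single one was APCmin/+ spleen M library 2 at 539 TPM. Their erythroid sums were between 14.4 and 45.6 TPM in the combined sort and 541 and 1996 TPM in all cells.

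Among the other sites, Slc37a2 was the 1 of 9 called in the G sort against the M sort of marrow, beside 1886 genes (10.2%, of which 6.89% higher and 3.33% lower). It was at 13.9 ± 0.852 TPM in the G sort and 5.49 ± 0.681 TPM in the M sort (1.20 ± 0.25, adjusted p = 4.16e-04). Tgm3 was at 1.52 ± 0.147 TPM in the marrow G sort and 0.507 ± 0.0764 TPM in the M sort, without overlap (0.74 ± 0.17, adjusted p = 0.00100), under the 2-fold minimum and past it with a pseudocount of 0.1 (1.42). In BALB/c spleen 0 of 9 were called beside 913 genes (4.94%, of which 1.71% higher and 3.24% lower). Car4, Slc26a3, Aqp8, Aqp4 and Saa1 were below 1 TPM in every G and M library of marrow and of BALB/c spleen. Tgm3 was so in BALB/c spleen. On log2(TPM + 1) such genes could not reach the 2-fold minimum, so their lack of a call was fixed beforehand. Saa3 reached its highest levels in BALB/c spleen: 42.8, 39.0 and 47.7 TPM in the G sort and 95.8, 83.8 and 61.8 TPM in the M sort, without overlap (-0.86 ± 0.74, adjusted p = 0.517). The spread used there is shared over all 13 groups. In a limma fit of these sorts alone, with library number as a block, it was -0.86 ± 0.20 (adjusted p = 0.0885). Combined BALB/c libraries held 2.12, 75.4 and 68.1 TPM of Saa3, library 1 lying far below the others.

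In APCmin/+ spleen 0 of 9 were called between G and M sorts, beside 594 genes (3.22%, of which 0.579% higher and 2.64% lower). Car4, Slc26a3, Aqp8, Aqp4, Saa1 and Tgm3 were again below 1 TPM in every library of these sorts and could not be called. Car1 was at 119, 115 and 55.9 TPM in the G sort and 164, 539 and 124 TPM in the M sort (-1.27 ± 0.55, adjusted p = 0.103), and it was called without M library 3 (-1.69, adjusted p = 0.0464). Car1 in BALB/c spleen was at 12.5 ± 10.7 TPM in the G sort and 22.7 ± 2.20 TPM in the M sort (adjusted p = 0.174), a call made without G library 3 (-1.75, adjusted p = 0.0359). Slc37a2 was at 25.8 ± 4.94 TPM in the G sort and 26.5 ± 10.4 TPM in the M sort of APCmin/+ spleen. Car4, Slc26a3, Aqp8, Aqp4 and Saa1 stayed at or below 1.60 TPM in all libraries of spleen and marrow, and Saa1 was listed at 0 in all marrow G and M libraries. Car1, Saa3 and Slc37a2 were thus not specific to colonic epithelium in these data.

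**Figure D4:**
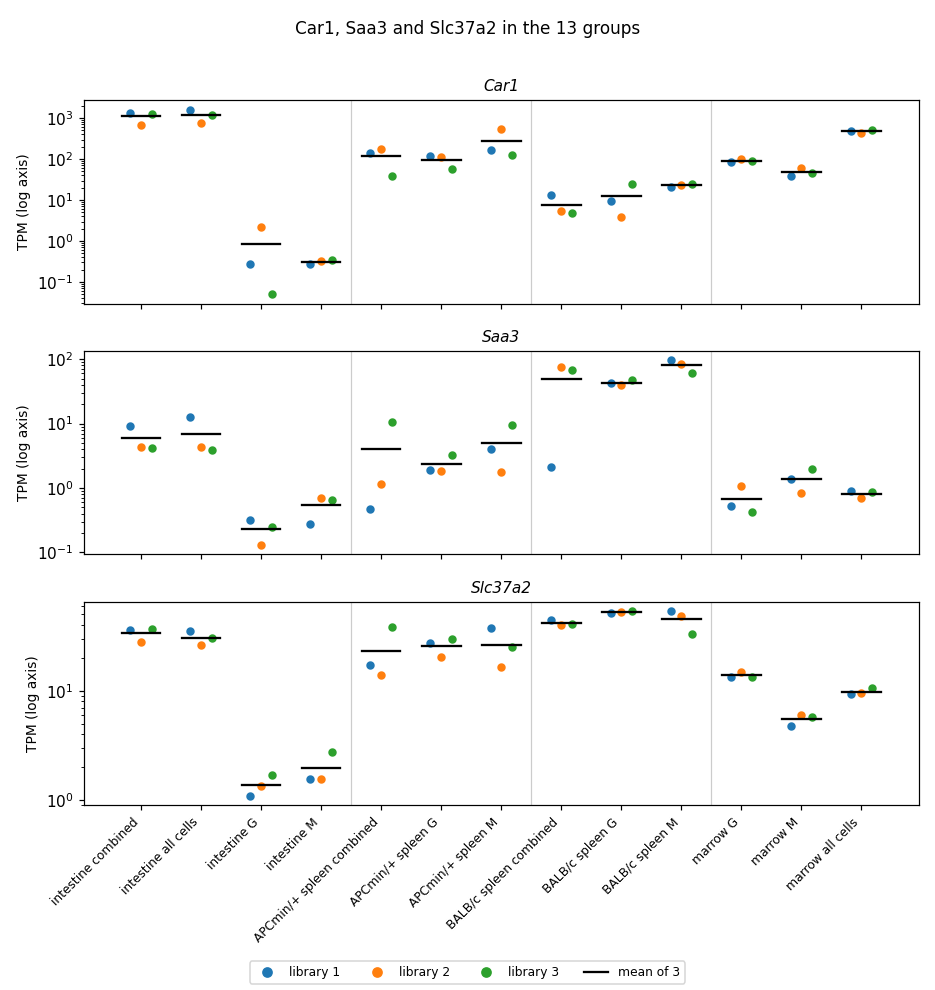
TPM (log axes) of Car1, Saa3 and Slc37a2, the 3 of the 9 genes with levels in spleen or marrow above 5 TPM, in the 13 groups, with points coloured by library number and a line at the mean of 3. Car1 is between 0.05 and 2.26 TPM in the intestinal G and M sorts and at 3.76 TPM or more in all other libraries, and Saa3 is highest in BALB/c spleen.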

How the data were processed

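RNA sorted into Trizol was made into TruSeq stranded mRNA libraries and sequenced as single reads of 75 bp on a NextSeq, per the labels' protocols. Per the submitters' processing notes, bcl2fastq 2.18, STAR 2.6.1c, RSEM and mm10 were used. The deposited values are TPM per gene from RSEM, made by the authors, scaled to the same total in every library. Read counts were not used here.

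A minimum TPM of 1 reached by 3 or more libraries left 18466 genes, fitted as log2(TPM + 1), a scale that understates changes of low genes, with limma 3.58.1 in R 4.3.3. The fit had 1 mean per group over all 39 libraries and a variance trend, with p values adjusted by Benjamini and Hochberg over all 18466 genes. Log2 fold changes of genes are omitted where both group means are below 1 TPM. Rescaling used median ratios over 6908 genes. The fits were tested on simulated data. Sequences are from RefSeq (GRCm38.p6) and gene positions from GENCODE on GRCm38, matched by symbol. Levels and figures were made in Python 3.11.15. A sequence on mouse chromosome 18 and that of Car1 were not used here.

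The genes and lists were chosen with earlier results of these data known. The genes named beside the 9 are those of the lists and the 3 nearest profiles per gene, selected after their values were seen. Library numbers pair the combined sort with all cells of intestine (correlations of deviations 0.643, 0.590 and 0.628), the intestinal G with M sorts (0.599, 0.432 and 0.562) and those of APCmin/+ spleen (0.555, 0.375 and 0.404), a pairing read from the data alone, the meaning of a number not being labelled.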

Additional observations from a re-analysis of the deposited data

Results flagged for a closer look

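The difference of the G sort from the M sort in Car1 ran in opposite directions at 2 sites, with no overlap between the 3 libraries of each sort at either. The share of all genes that did so was not counted. In marrow the log2 fold change was 0.94, at 84.3, 102 and 90.3 TPM in the G sort and 37.9, 61.1 and 46.4 TPM in the M sort. In APCmin/+ spleen it was -1.27, at 119, 115 and 55.9 TPM in the G sort and 164, 539 and 124 TPM in the M sort. Neither passed the limma test across genes (adjusted p = 0.218 and 0.103), whose spread for a gene is shared over all 13 groups. In limma fits of the compared sorts alone, with library number as a block, the marrow value was 0.94 ± 0.093 (SE, adjusted p = 0.00938). It was still under the 2-fold minimum. That of APCmin/+ spleen was -1.27 ± 0.40 (adjusted p = 0.183). The erythroid sum was 2152 ± 485 TPM in the G sort and 917 ± 229 TPM in the M sort of marrow. In APCmin/+ spleen it was 11680 ± 5232 and 17719 ± 10624 TPM in the same order. Its part in the level of Car1 and the difference in Car1 between the sites were not tested.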

How the results depend on the processing

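All 9 genes stayed higher without overlap in the combined sort and all cells under each alternative that recomputed this contrast. Genes higher without overlap over the table numbered between 1125 and 1786 on leaving out 1 library (1786 without G library 2), 2738 with all cells alone and 3193 with number 3 alone, an alternative chosen after the data were seen. Genes lower without overlap numbered 485 after rescaling, 603 with the combined sort alone, 281 per unit of epithelium and 630 with number 3 alone. A pseudocount of 0.1 called 974 genes between combined sort and all cells, 3134 in marrow and 967 in APCmin/+ spleen, with 2 of the 9 in marrow and 2 in BALB/c spleen. With no fold minimum, calls were 948 for combined sort against all cells, 1184 for intestinal G against M, 12925 and 13419 for intestine against spleen in G and M sorts, 5693 in marrow, 3322 in BALB/c spleen and 3851 in APCmin/+ spleen, with 1 of the 9 in intestine, 2 in marrow and 1 in BALB/c spleen. Fits of the compared groups alone called 5 genes between combined sort and all cells, 66 between intestinal G and M sorts and 0 in APCmin/+ spleen (2622 at an unadjusted p under 0.05), and with the replicate block 0, 261 and 0 (4912 unadjusted in APCmin/+ spleen). The block changed no call of the 9 that is given here as a test. Leaving out 1 library gave between 364 and 874 genes for combined sort against all cells, 373 and 939 in APCmin/+ spleen, and 0 to 1 of the 9 in BALB/c and in APCmin/+ spleen. Signs turned only where no call was made. Rescaling turned Car1 (0.025) and Aqp4 (0.087) between combined sort and all cells, and Saa1 (-0.11) between intestinal sorts. Leaving out 1 library gave ranges across 0 of -0.37 to 0.23 for Car1, -0.33 to 0.28 for Aqp4, -0.44 to 0.35 for Saa3, -0.080 to 0.39 for Slc26a3 and -0.050 to 0.38 for Tgm3 in combined sort against all cells, -0.025 to 0.82 for Aqp8 and -0.17 to 0.21 for Saa1 between intestinal sorts, and -0.27 to 0.29 for Slc37a2 in APCmin/+ spleen. The causes were not tested. TPM keeps no depth, so how far low values such as those of Tgm3 differ from 0 is unknown.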
